A study of Mus musculus with 15 samples.

Results

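The Dmrt1, Dmrt3, Dmrt2 cluster is a run of neighbouring genes on mouse chromosome 19. These genes encode transcription factors with a DM domain, a zinc-finger DNA-binding domain. The cluster is described here through the 250 kb window chr19:25540001-25790000 (build mm9, counted from 1) and through every interval that 3 deposited peak lists place in it. These are 9 intervals of 2466 in all, made up of 3 of 902 EZH2 intervals, 3 of 438 FLAG intervals and 3 of 1126 H3K27me3 intervals. The window was chosen from these same lists because it is dense in FLAG intervals, so the presence of FLAG there and the number of intervals describe the choice and are not findings. The interval nearest to the lower window edge starts 37.8 kb inside it, the one nearest to the upper edge ends 37.0 kb inside it, and the closest interval outside lies 598 kb below the first site.

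The lists come from chromatin immunoprecipitation with sequencing of mouse embryonic fibroblasts that carry floxed EED and stably express wild-type EZHIP from a lentivirus, with 1 library for each of the antibodies to EZH2, FLAG and H3K27me3. No treatment is given for these cells, and the labels state neither an age nor whether the cells are a clone. All 15 libraries of the series come from cells with lentiviral EZHIP, wild-type or variant, and the other 12 libraries, from cells given DMSO or Tazemetostat, from an EED knockout clone and from floxed cells with the EZHIP variant, were not analysed here. FLAG was read as tagged EZHIP because EZHIP is the profiled target that the series design names beside EZH2 and H3K27me3. The authors call the H3K27me3 list residual. There are no replicates and the lists hold positions without a score, so read depth, peak height and the error of an edge are unknown, and no test was made.

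EZH2 is the catalytic subunit of PRC2, the Polycomb complex that methylates lysine 27 of histone H3. EED is the PRC2 subunit that binds the trimethylated mark and stimulates the enzyme, and EZHIP is a protein that inhibits PRC2. PRC2 is known for occupying CpG-rich starts of developmental regulators in cell types where those genes are silent. In this cluster, Dmrt1 is known for maintaining male fate in the testis, Dmrt3 for the specification of spinal interneurons that act in locomotion, and Dmrt2 for somite and axial skeleton patterning. None of these tissues is the fibroblast culture studied, and RNA was not measured in these files.

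The RefSeq gene table of build GRCm38.p6 orders the genes from low to high coordinate as Dmrt1, Dmrt3 and Dmrt2, with the long non-coding RNA gene 2610016A17Rik between Dmrt3 and Dmrt2. The nearest protein-coding neighbours in that table are Kank1 below and Smarca2 above. These are the 3 protein-coding Dmrt genes on chromosome 19, of 11 in that table. Positions of genes in build mm9 were not used here, and none were carried over from GRCm38.p6. The gene name of the window could therefore not be checked against the intervals, and the sites are called first, middle and last by coordinate without being given to a gene. Likewise, exons, introns and start sites within the intervals are not stated.

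Sequence upstream of a member is shown because high CpG content is a sequence property known of PRC2 sites. RefSeq promoter windows, from 250 bases before a start to 50 after it, were found for 2 of the 3 members, Dmrt3 and Dmrt2. The bases below are the part of the Dmrt2 window that precedes the gene in the GRCm38.p6 table, at chr19:25672161-25672393 of that build on the plus strand. They are not comparable by coordinate with the mm9 intervals. The capitals mark each CpG, and the first 79 bases also lie in 2610016A17Rik.
Dmrt2 upstream: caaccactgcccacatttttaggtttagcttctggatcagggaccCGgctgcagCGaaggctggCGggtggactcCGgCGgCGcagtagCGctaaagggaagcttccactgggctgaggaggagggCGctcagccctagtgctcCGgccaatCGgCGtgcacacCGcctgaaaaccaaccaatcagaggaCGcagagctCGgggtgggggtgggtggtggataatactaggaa
This stretch of 233 bases held 14 CpG and was 61.4% G or C. The whole 300-base Dmrt2 window held 18 CpG, a number reached or passed by 29.7% of the 32851 mouse promoter windows in the table, whose median was 7. Its ratio of observed to expected CpG was 0.625. The Dmrt3 window held 15 CpG, reached or passed by 34.6% of windows, with a higher G and C content (70.7%) and a lower ratio of 0.471. It starts 41 bases inside the gene as the table draws it and is not shown. By number of CpG both windows therefore lay above the median of the table and below its upper quartile of 20. Both ratios likewise lay between the median of 0.384 and the upper quartile of 0.750. By G and C content both windows, with 62.7% for Dmrt2, lay above the upper quartile of 61.7%. The 21 windows found for 12 Dmrt-named genes held from 1 to 31 CpG, the most in a window of the long non-coding RNA gene Dmrt1i. As examples, the window of Dmrta2 on chromosome 4 held 26 CpG and those of Dmrtc1a on chromosome X held 6, 3 and 1.

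The intervals formed 3 separate sites, each with exactly 1 interval of every list. Over the whole series 359 of 1175 regions of overlapping intervals, or 30.6%, had this composition. At the first site, EZH2 covered chr19:25577801-25584199 (6399 bp), FLAG covered chr19:25578401-25581599 (3199 bp) and H3K27me3 covered chr19:25578201-25584799 (6599 bp). The middle site was the largest in every list. There EZH2 covered chr19:25672801-25690799 (17999 bp), FLAG chr19:25677201-25687799 (10599 bp) and H3K27me3 chr19:25674201-25691199 (16999 bp). At the last site, EZH2 covered chr19:25741801-25752999 (11199 bp), FLAG chr19:25745601-25749399 (3799 bp) and H3K27me3 chr19:25742001-25752799 (10799 bp). EZH2 and H3K27me3 thus stepped down in width from the middle to the last and then the first site, whereas FLAG was of nearly one size at the last and first sites.

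**Figure D1:**
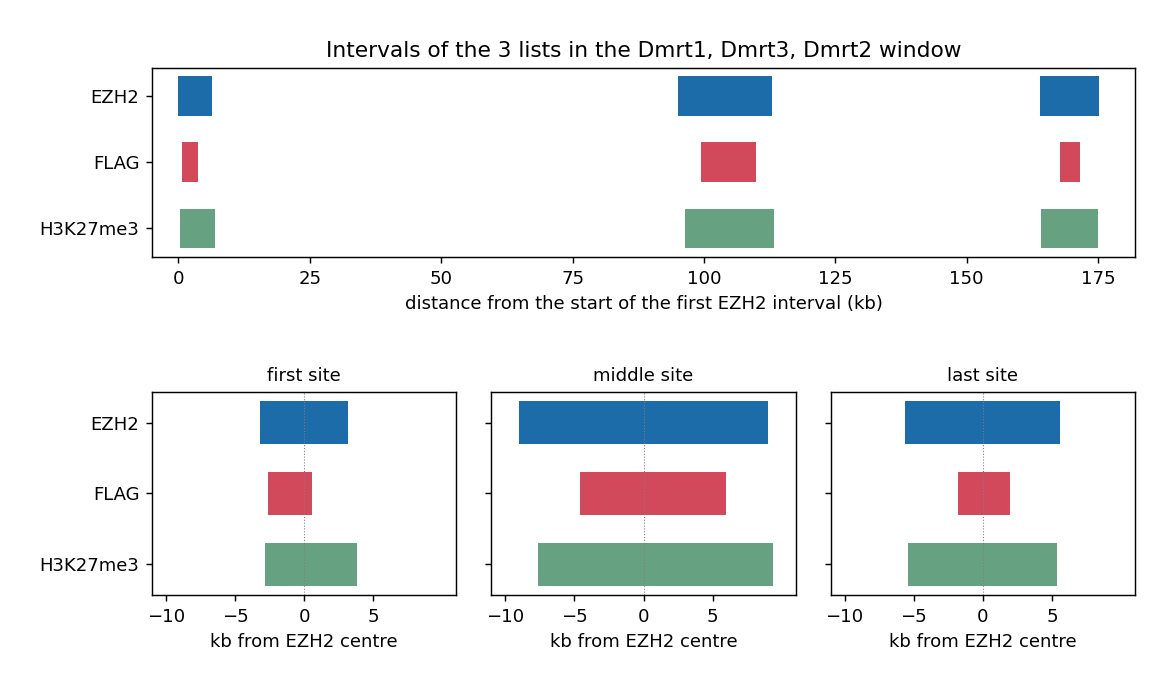
The upper panel shows the intervals of the 3 lists as bars along the window, in kb from the start of the first EZH2 interval; the lower panels show each site in kb from the centre of its EZH2 interval. FLAG is the shortest bar at each site, off centre at the first site (midpoint 1000 bp lower than that of EZH2) and nearly centred at the last (100 bp higher).

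FLAG lay whole inside both other signals at every site of the cluster. All 3 FLAG intervals were inside an EZH2 interval, as were 96.6% of the 438 FLAG intervals of the series. All 3 were also inside an H3K27me3 interval, as were 98.2% of the series, where 98.6% at least overlapped one. These shares are close to those of the whole list, so the nesting of FLAG does not set the cluster apart. Seen from the other lists, all 3 EZH2 intervals carried FLAG, against 45.5% of 902, and all 3 H3K27me3 intervals carried FLAG, against 36.1% of 1126. Choosing a window dense in FLAG favours such counts, so they are not findings. The choice does not fix them: in another stretch dense in FLAG, on chromosome 1, an EZH2 interval held no FLAG. EZH2 and H3K27me3 overlapped each other at all 3 sites, beside 95.2% of EZH2 intervals and 71.7% of H3K27me3 intervals over the series. Since nearly all FLAG intervals lie inside both other signals, this count largely follows from choosing a window dense in FLAG.

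The order of nesting between EZH2 and H3K27me3 differed among the sites. At the last site H3K27me3 lay inside EZH2, ending 200 bp short of it on both sides, so that FLAG sat in H3K27me3 and H3K27me3 in EZH2. That distance is 1 step of the 200 bp grid on which the lists are drawn. At the first site H3K27me3 stopped 400 bp short of EZH2 at the low-coordinate edge and reached 600 bp beyond it at the other. At the middle site it stopped 1400 bp short at the low-coordinate edge and reached 400 bp beyond at the other. H3K27me3 was therefore displaced towards higher coordinates at the first and middle sites, by 500 and 900 bp between midpoints, and by 0 bp at the last. Of the 359 regions with 1 interval of each list, H3K27me3 lay inside EZH2 in 197 (54.9%), was displaced to one side in 90 (25.1%), extended around EZH2 in 61 and had the same edges in 11 (3.06%). A displacement of midpoints of at least 900 bp, in either direction, was present in 36 of them (10.0%), and one of at least 500 bp in 96 (26.7%).

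Whole nesting is a strict criterion here. Of the 3 H3K27me3 intervals 1 was inside EZH2, beside 44.6% of the H3K27me3 list, and 0 of the 3 EZH2 intervals were inside H3K27me3, beside 19.3% of the EZH2 list. When 90% of the bases was required instead, all 3 met it in both directions. By bases, H3K27me3 covered 93.7% of the EZH2 interval at the first site, 92.2% at the middle and 96.4% at the last, around the median of 92.6% for the 359 regions. The edges of the 2 signals thus lay 200 to 1400 bp apart, while the share of EZH2 bases inside H3K27me3 intervals stayed above 92% at each site.

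FLAG took up a different part of the EZH2 interval at each site. It covered 49.99% of EZH2 at the first site, 58.9% at the middle and 33.9% at the last, where the median over the 359 regions was 52.2% (interquartile range 37.0 to 65.1%). The last site lay below the lower quartile, and FLAG took up a smaller share in 19.5% of the regions. The last and middle sites had the same 7400 bp of EZH2 outside FLAG, although the EZH2 intervals differed by 6.80 kb in width. At the first site 3200 bp of EZH2 lay outside FLAG, close to the median of 3600 bp. The FLAG widths of 3199 and 3799 bp at the first and last sites differed by 600 bp, while their EZH2 intervals differed by 4.80 kb.

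**Figure D2:**
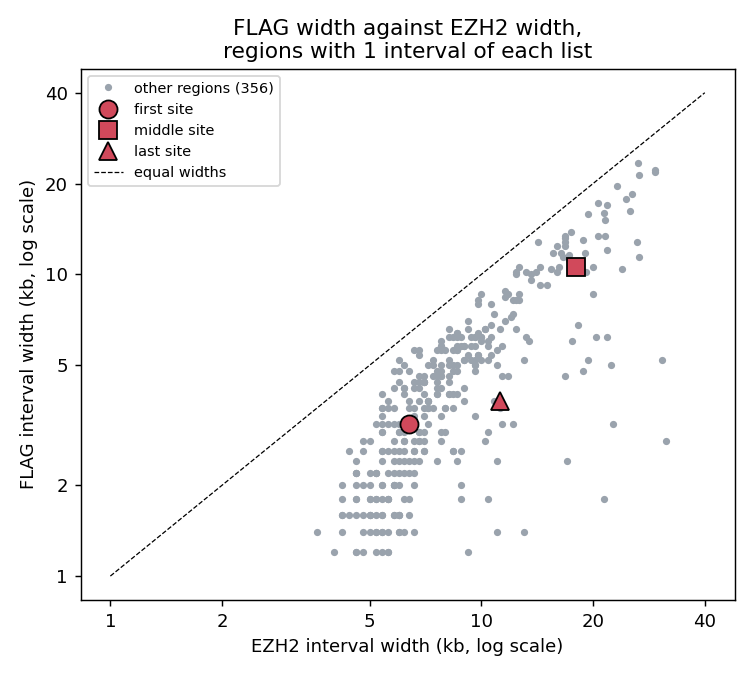
Each point is 1 of the 359 regions with a single interval of each list, with EZH2 width on the x axis and FLAG width on the y axis (kb, both on a log scale); the dashed line marks equal widths. The first and middle sites lie within the main band of points, and the last site, with 3.80 kb of FLAG in 11.2 kb of EZH2, lies below most points of similar EZH2 width, where FLAG was wider in 23 of 32 regions and narrower in 8.

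Regions whose EZH2 interval was within 1000 bp of the same width give the setting for these values. Around the width of the first site there were 123 other regions, with a median FLAG width of 2999 bp, and FLAG was narrower than at the first site in 69 of them and wider in 47. Around the middle site there were 9, with a median of 11199 bp, and FLAG was narrower in 4 and wider in 5. Around the last site there were 32, with FLAG from 1399 to 8799 bp and a median of 5799 bp, and it was narrower than at the last site in 8 and wider in 23. FLAG was thus near the middle of the range for its EZH2 width at the first and middle sites and towards the lower end at the last.

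EZH2 reached beyond FLAG by 600 bp at the low-coordinate edge of the first site and by 2600 bp at the other edge. The corresponding distances were 4400 and 3000 bp at the middle site and 3800 and 3600 bp at the last. The median of these 6 edges was 3300 bp (3000 ± 1333 bp, mean and SD over the 6 edges, which are not replicates). Over the 718 edges of the 359 regions, which were not matched for EZH2 width, the median was 1800 bp with an upper quartile of 2400 bp. Of the 6 edges, 5 lay above that quartile. The middle and last EZH2 intervals were themselves wider than 94.1% and 86.0% of their list. At the middle site FLAG covered 58.9% of EZH2, above the median of 52.2%. The edge not above the quartile was the low-coordinate edge of the first site, where FLAG and EZH2 began close together. With that edge included, 44 of the 718 edges (6.13%) were as close or closer.

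FLAG was correspondingly off centre at the first site. The wider of its margins to the EZH2 edges made up 81.3% of both margins together, a share exceeded in 6.96% of the 359 regions, whose median was 60.0%. The share was 59.5% at the middle site and 51.4% at the last, the most even of the cluster. The FLAG midpoint lay 1000 bp below the EZH2 midpoint at the first site and 700 bp above it at the middle site, while at the last site it lay 100 bp above. Against H3K27me3, the FLAG midpoint lay 1500 bp lower at the first site, 200 bp lower at the middle and 100 bp higher at the last. At the first site FLAG and H3K27me3 were therefore displaced from EZH2 in opposite directions, and at the middle site in the same direction.

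**Figure D3:**
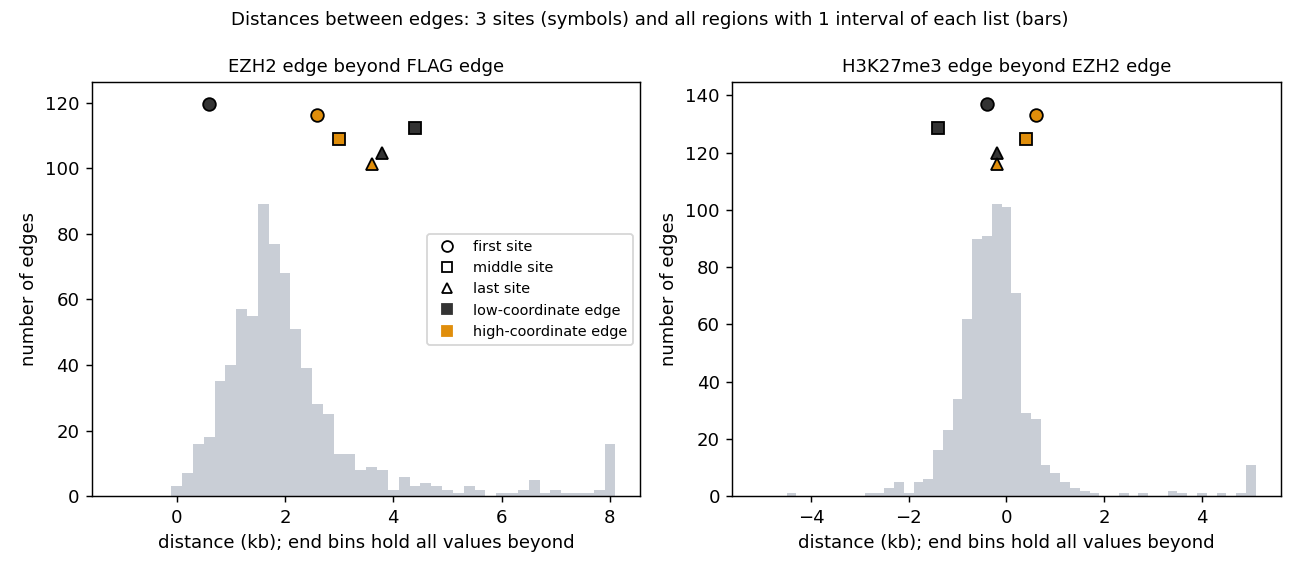
Grey bars count the 718 edges of the 359 regions by the distance (kb) that EZH2 reaches beyond FLAG on the left and that H3K27me3 reaches beyond EZH2 on the right, with negative values where it stops short; symbols at arbitrary heights mark the 6 edges of the sites. On the left, 5 of the 6 edges lie above the upper quartile of 2400 bp, without matching for EZH2 width. On the right the values run from -1400 to 600 bp.

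Among all intervals of their lists, those of the middle site were wide and the FLAG intervals of the other sites were not. The middle EZH2 interval was wider than 94.1% of the EZH2 list, FLAG there was wider than 90.4% of its list, and H3K27me3 was wider than 87.6%. At the last site EZH2 was wider than 86.0% and H3K27me3 than 79.4% of their lists, whereas FLAG was wider than 46.1% of FLAG intervals. At the first site the values were 63.1% for EZH2, 64.3% for H3K27me3 and 37.9% for FLAG. The EZH2 and H3K27me3 lists include intervals without FLAG, so these ranks are not on one footing across the lists. Among the 359 regions with 1 interval of each list, the ratio of EZH2 to FLAG width had a median of 1.92, and it was 2.0 at the first site, 1.70 at the middle and 2.95 at the last.

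**Figure D4:**
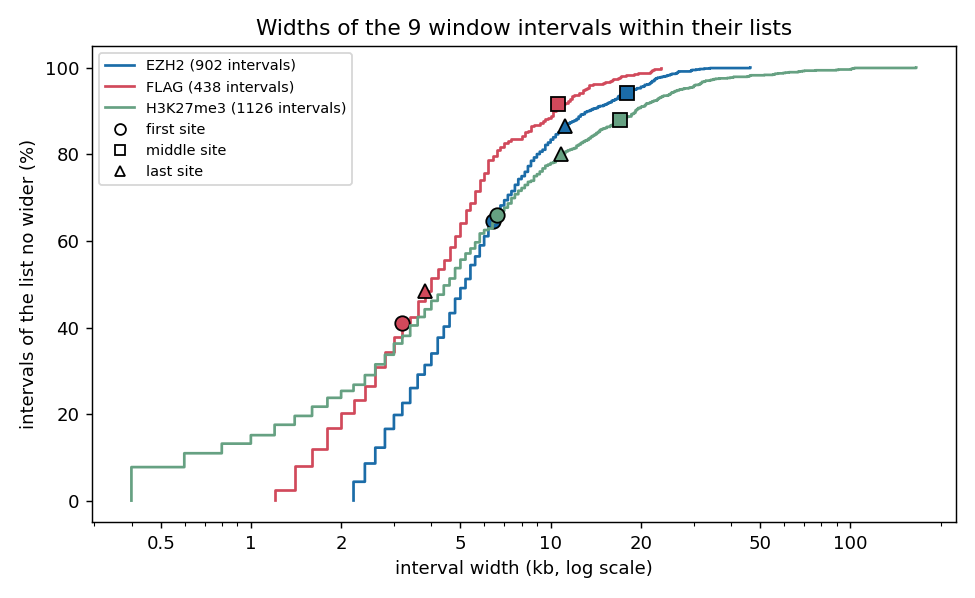
Lines give the share of each list's intervals (y axis, %) that are no wider than a given width (x axis, kb, log scale), and symbols mark the 9 intervals of the cluster on the line of their list. The squares of the middle site lie near the top of each line, and the FLAG symbols of the first and last sites lie below the centre of the FLAG line.

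The stretches between the sites held no interval of any list. With the lists combined, 88.0 kb separated the first from the middle site and 50.6 kb the middle from the last. List by list, the first gap was 88.6 kb for EZH2, 95.6 kb for FLAG and 89.4 kb for H3K27me3, and the second was 51.0, 57.8 and 50.8 kb. H3K27me3 therefore bridged neither gap, and its gaps differed from those of EZH2 by 800 and 200 bp. Gaps of this size were short for the lists: 9.09% of the 418 gaps between neighbouring FLAG intervals were no longer than the second gap and 11.5% no longer than the first. The median gap was 2.01 Mb for FLAG, 1.10 Mb for EZH2 and 0.917 Mb for H3K27me3. These ranks also restate the choice of a dense window.

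From the first start to the last end the cluster spanned 175 kb, of which 20.3% was covered by EZH2, 19.6% by H3K27me3 and 10.0% by FLAG. The middle site alone held 50.6% of the EZH2 bases, 49.4% of the H3K27me3 bases and 60.2% of the FLAG bases of the window. The window held 0.794% of all FLAG bases, 0.572% of all EZH2 bases and 0.371% of all H3K27me3 bases. FLAG covered 49.4% of the EZH2 bases in the window and 34.9% over the whole list, which includes the EZH2 intervals without FLAG. Of the H3K27me3 bases in the window 97.1% lay in EZH2, beside 58.1% over the whole list, which likewise includes H3K27me3 intervals without EZH2. Set against the 359 regions with 1 interval of each list, where the median share was 100% and the lower quartile 95.5%, the sites were not high: the share was 90.9% at the first site, 97.6% at the middle and 100% at the last.

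Outside the cluster the next intervals lay closer below than above. Below it, the nearest intervals of the 3 lists lay together at 598 kb for EZH2 (chr19:24969001-24979599), 601 kb for FLAG (chr19:24970801-24976999) and 600.0 kb for H3K27me3 (chr19:24970201-24978199), and FLAG was again inside both others. These distances were shorter than the median gap of each list, which was 1.10 Mb for EZH2, 2.01 Mb for FLAG and 0.917 Mb for H3K27me3. Above the cluster, the next interval was a single H3K27me3 interval of 399 bp at 2.85 Mb (chr19:28600801-28601199), the narrowest width in that list. EZH2 next appeared at 10.4 Mb (chr19:36129201-36133999) and FLAG at 12.02 Mb (chr19:37771001-37775199). The 3 sites were thus close to each other compared with their distance from any further interval. Their closeness again restates the choice of a dense window.

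When FLAG intervals were joined across gaps of at most 100 kb, 10 of 388 clusters (2.58%) held 3 or more, and the Dmrt cluster was 1 of 8 with exactly 3. With 171 kb from its first to its last FLAG base it was the longest of the 10, the others running from 14.0 to 168 kb. FLAG covered 10.3% of that length, the lowest share of the 10, where the others ranged from 13.6 to 44.1%. It was also the 1 cluster of the 10 in which every site held exactly 1 interval of each list. In the chromosome 1 cluster the 3 FLAG intervals likewise had EZH2 and H3K27me3 intervals of their own, and a further EZH2 interval shared the H3K27me3 of one of them, giving 4 EZH2 intervals. In the other 8 clusters, several FLAG intervals shared a single H3K27me3 interval at 1 or more sites. With 17597 bp of FLAG it ranked 14 of 388 by bases. This arrangement rests on the joining distance: at gaps of at most 50 kb the 3 sites are 3 clusters of 1, like 373 of 402 clusters. The place by length rests on it too. The first FLAG gap of 95.6 kb is just within the limit of 100 kb, and lengths were not ranked at a wider limit.

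**Figure D5:**
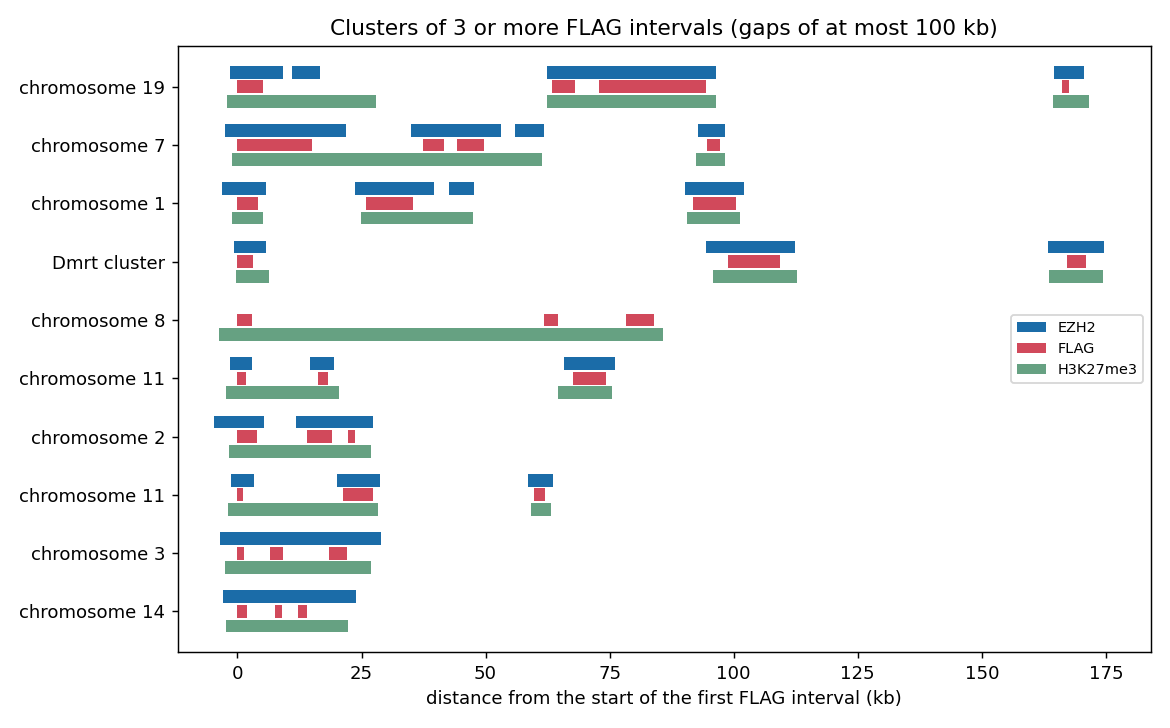
Each row is 1 of the 10 clusters with 3 or more FLAG intervals, drawn in kb from its first FLAG interval, with EZH2 above, FLAG in the middle and H3K27me3 below. In the Dmrt row the 3 sites are separate in all lists over 171 kb, while in the row of chromosome 3 a single EZH2 and a single H3K27me3 interval hold all 3 FLAG intervals.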

How the data were processed

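Chromatin from mouse embryonic fibroblasts was fixed and cut to mono-nucleosomes by micrococcal nuclease before immunoprecipitation, per the labels' protocols. Bowtie 1.0.0, deepTools and build mm9 are named in the submitters' processing notes. Caller, thresholds, control libraries and depth are not named there or in the labels. Each deposited list holds the chromosome, start and end of each interval, 1 list per library, with starts on a 200 bp grid and no score. Groups were taken from the sample titles.

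With Python 3.11.15 and numpy 2.4.6, intervals touching the window were taken, starts were counted from 1, and overlap meant at least 1 shared bp. Regions are chains of overlapping intervals of the 3 lists. Interval arithmetic was tested on 200 simulated cases against a base-by-base count, and 100% were equal. Promoter windows and gene order came from RefSeq tables of GRCm38.p6, used without coordinates of the lists. Window, members, gene list and measures were chosen with earlier results of these data known. Named are the 3 genes, all intervals of the window, the nearest interval of each list on both sides, the flanking protein-coding genes and Dmrt-named genes. The 10 FLAG clusters and regions of similar EZH2 width were added after their values were seen. No test was made, because each antibody has 1 library and the lists chose the window. Alternatives changed the window, the narrowest widths, the overlap, the nesting criterion and the joining distance.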

Additional observations from a re-analysis of the deposited data

How the results depend on the processing

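Of 55 alternative values for 18 results, 49 stayed within 1.5 times the reported count or within 1 SD of the reported distance, and 6 moved. Many of the 49 could not differ, so the tally does not measure robustness. The closest interval outside lies 598 kb away, and the sites are at least 50.6 kb apart. All 9 intervals are wider than the width limits below, and intervals that overlap are also within 5 kb. The numbers of intervals were the same with the window widened by 50 or 100 kb, with intervals of a list joined at gaps of at most 5 kb, and without intervals up to the lower quartile of width (EZH2 3399 bp, FLAG 2399 bp, H3K27me3 1999 bp). The overlaps were the same with the window widened by 100 kb, without those narrow intervals, and with overlap of 50% of the narrower interval or within 5 kb. The covered bases were recomputed with the window widened by 100 kb alone and were the same. Nesting between EZH2 and H3K27me3 moved with its definition. H3K27me3 intervals inside EZH2 numbered 1 of 3 as reported, 0 with edges at least 400 bp inside and 3 with 90% of the bases inside. EZH2 intervals inside H3K27me3 numbered 0 as reported, 1 where an edge may reach 200 bp outside and 3 with 90% of the bases. FLAG inside H3K27me3 fell from 3 to 2 with edges at least 400 bp inside, since 200 bp separated them at the low-coordinate edge of the first site. That fall is within 1.5 times and is counted among the 49. The rank of the cluster among FLAG clusters was 3 as reported, tied with 7 others, 30 with gaps of at most 50 kb and 14 by covered bases. Each change follows from the construction of the alternative. No paired analysis was possible because every group has 1 library and no result comes from a test. Without scores, no stricter threshold was available, and without depth it is unknown which edges are exact.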
